A study of Mus musculus with 2 samples.

Results

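The following 6 genes of the muscle fibre surface membrane, the sarcolemma, were described in mouse gastrocnemius: Scn4a, Clcn1, Atp1b1, Atp1b2, Fxyd1 and Fxyd5. They were chosen by name, as a set of sodium channel, chloride channel and sodium-pump genes, and all 6 were found among the 55450 annotated genes of the deposited tables. Total RNA sequencing had been done on 2 libraries of gastrocnemius, the main calf muscle, from male B6CASTF1/J mice, which are hybrids of C57BL/6J and CAST/EiJ. The labels describe the animals as 18 to 20 months old, although the separate age entry reads unknown, and no treatment is named. The input was 300 ng of RNA per library, with ERCC spike-ins (synthetic control RNAs) added. Both libraries form 1 group, as biological replicates 1 and 2. The males carry different numbers in the labels while a single donor record is listed for both libraries, so the spread between the libraries may be technical or between animals. There is no second condition, so every comparison was made between genes or between the 2 libraries.

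The 6 genes act on the same electrical cycle. Scn4a encodes Nav1.4, the voltage-gated sodium channel that carries the upstroke of the muscle action potential, and Clcn1 encodes ClC-1, the chloride channel that dominates the resting conductance of skeletal muscle and limits its excitability. The sodium pump, Na,K-ATPase, then restores the ion gradients: a catalytic alpha subunit needs a beta subunit to fold and reach the membrane, and Atp1b1 and Atp1b2 encode the beta1 and beta2 forms. Small single-pass proteins of the FXYD family attach to the pump and adjust its ion affinity and turnover. Fxyd1 encodes phospholemman, the pump regulator of heart and skeletal muscle, and Fxyd5 encodes dysadherin, known mainly from epithelia.

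The FXYD family is named after a short signature next to the membrane span, and its codons are shown first because Fxyd1 and Fxyd5 share it while their levels lay far apart. The sequences were read from the GENCODE M21 transcripts (build GRCm38, minus strand) and the signature codons are in capitals, at codon 29 of 92 in Fxyd1-203, chr7:31053458-31053917, and codon 135 of 178 in Fxyd5-203, chr7:31035267-31035410. Each genomic span includes an intron.
Fxyd1-203: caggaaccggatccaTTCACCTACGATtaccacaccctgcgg
Fxyd5-203: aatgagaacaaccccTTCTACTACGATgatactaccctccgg
The codons of the fast inactivation particle of Nav1.4, the short stretch that plugs the open channel, mark Scn4a-201 as the channel-coding transcript. They are in capitals and start at codon 1304 of 1841, chr11:106322848-106323881 on the minus strand, again with an intron inside the span.
Scn4a-201: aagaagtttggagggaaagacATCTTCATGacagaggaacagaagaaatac
Clcn1 was split between the coding transcript Clcn1-201 and the non-coding Clcn1-202, which skips exon 21 of Clcn1-201 (105 bases, chr6:42313054-42313158, plus strand). The junctions that tell them apart are shown with the bases on both sides of the join in capitals, chr6:42311221-42313083 for Clcn1-201 and chr6:42311221-42313267 for Clcn1-202.
Clcn1-201: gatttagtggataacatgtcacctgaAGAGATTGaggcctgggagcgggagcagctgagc
Clcn1-202: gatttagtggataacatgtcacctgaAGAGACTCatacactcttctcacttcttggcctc

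Promoter letters were compared, and the windows of Clcn1 and Atp1b1 are printed. These genes had the highest and the lowest ratio between the libraries among the 6. Both libraries are from the same hybrid strain, and the part of promoter letters in these ratios was not tested. RefSeq promoters of build GRCm38.p6 were matched for 5 of the 6 genes, all but Atp1b2, and the 250 bases before each start were searched on both strands. The Clcn1 window, chr6:42286435-42286684 on the plus strand, is shown with E-box letters (CANNTG, the core bound by myogenic factors such as MyoD) in capitals.
Clcn1 promoter: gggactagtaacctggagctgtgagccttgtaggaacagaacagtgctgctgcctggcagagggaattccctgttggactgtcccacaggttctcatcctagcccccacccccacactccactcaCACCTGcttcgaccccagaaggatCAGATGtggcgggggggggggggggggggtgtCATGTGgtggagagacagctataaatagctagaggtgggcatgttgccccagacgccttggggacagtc
The Atp1b1 window, chr1:164458356-164458605 on the minus strand, is shown with GC-box letters (GGGCGG on either strand, the core of Sp1 sites) in capitals.
Atp1b1 promoter: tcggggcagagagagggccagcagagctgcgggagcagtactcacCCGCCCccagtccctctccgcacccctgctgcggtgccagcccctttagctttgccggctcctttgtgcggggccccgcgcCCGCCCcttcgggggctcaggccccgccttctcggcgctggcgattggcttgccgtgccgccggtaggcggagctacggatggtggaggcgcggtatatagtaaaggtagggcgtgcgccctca
Among the 5 windows, the E-box letters were found only in Clcn1, at 3 places, although 66.2% of 32851 promoter windows hold them. The MEF2 letters CTANNNNTAG and the TATA letters TATAAA were also found only in Clcn1 among the 5, once each and overlapping, against 3.20% and 12.4% of all windows. The GC-box letters were found only in Atp1b1 among the 5, at 2 places, against 32.7% of all windows. GC content was 70.4% in the Atp1b1 window, 61.6% in Scn4a, 60.0% in Clcn1, 57.2% in Fxyd1 and 55.6% in Fxyd5, against a median of 52.4% over all windows. A match is a match of letters and not a measured binding site.

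The libraries held 40795740 and 44919441 expected counts in replicates 1 and 2, of which 56714 and 61642 fell on the 6 genes. A set of 15 slow fibre markers fixed for tissue composition differed between the libraries: all 15 were at least 2-fold higher in replicate 2, none was at 0 in both libraries, and their summed level was 368.68 TPM in replicate 1 and 3447 TPM in replicate 2. Of 15 fast fibre markers, 13 were under 2-fold apart and 2, Myh1 and Myh2, were at least 2-fold higher in replicate 2, with a summed level of 126572 TPM in replicate 1 and 96847 TPM in replicate 2. The most abundant markers were Tnnt3, a fast troponin, at 18401 and 15168 TPM in replicates 1 and 2, and Myh4, the fastest myosin heavy chain, at 15964 and 11005 TPM, so markers of fast fibres were high in both. Of the 7 epithelial markers, Cldn4 and Cldn7 were at 0 in both libraries. All 7 summed to 0.27 TPM in replicate 1 and 1.04 TPM in replicate 2. Only Krt18, with 6 and 21 counts in replicates 1 and 2, and Cdh1, with 9 and 25, were abundant enough to compare. Both were at least 2-fold higher in replicate 2, with counting intervals that reached across the 2-fold line. Among all 14958 genes abundant enough to compare, 2.25% were at least 2-fold higher in replicate 1 and 5.21% in replicate 2.

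Levels are given as TPM, an abundance unit that divides counts by transcript length and by the library's total, so that genes can be set side by side. All 6 genes were detected in both libraries, and they spanned a wide range. Fxyd1 was the most abundant at 399.66 ± 37.96 TPM (SD, n = 2), followed by Scn4a at 212.75 ± 19.59 TPM and Atp1b2 at 161.15 ± 21.1 TPM. Clcn1 averaged 73.2 ± 12.3 TPM and Atp1b1 68.3 ± 70.1 TPM, and Fxyd5 was lowest at 4.77 ± 1.26 TPM. The ranges of the 2 libraries did not overlap between neighbours in this order, except that the range of Clcn1 lay inside that of Atp1b1. Among all protein-coding genes of the nuclear genome, Fxyd1 ranked at 102 by mean level, Scn4a at 231, Atp1b2 at 330, Clcn1 at 715, Atp1b1 at 773 and Fxyd5 at 6674. Of the genes ranked, 10058 had at least 1 TPM in both libraries. The deposited posterior SD of the count was 0 for all 6 genes in both libraries, as it is where no reads are shared out between genes.

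**Figure D1:**
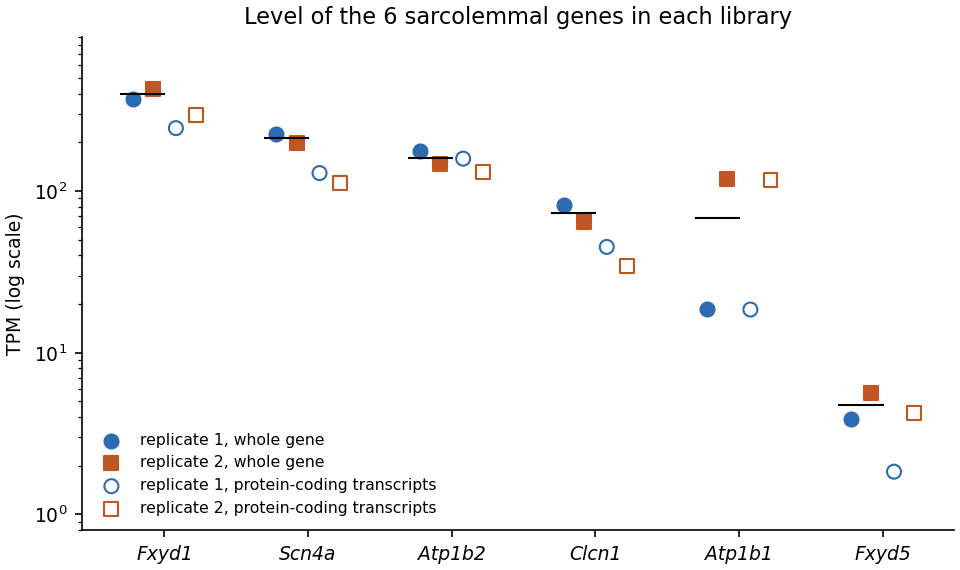
TPM (log axis) of the 6 genes in replicate 1 (circles) and replicate 2 (squares), filled for the whole gene with a bar at the mean of 2 libraries, open for protein-coding transcripts alone. Atp1b1 is the only gene whose libraries stand far apart, at 18.7 and 117.9 TPM, and Scn4a falls under Atp1b2 when only protein-coding transcripts are counted.

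Between the libraries, the ratio of replicate 1 over replicate 2 was taken from TMM-scaled counts, with an exact 95% interval that covers counting error only. None of the 6 genes was at least 2-fold higher in replicate 1, beside 2.25% of the 14958 genes compared. One, Atp1b1, was at least 2-fold higher in replicate 2, beside 5.21% of the genes compared. The median log2 ratio was 0.05 over the 6 genes and -0.0054 over all genes compared, whose middle 95% ran from -1.48 to 0.95. Scn4a, Clcn1 and Atp1b2 lay above 0 and Atp1b1, Fxyd1 and Fxyd5 under 0. The biological coefficient of variation, the spread between the libraries beyond counting noise over all genes, was 0.227.

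**Figure D2:**
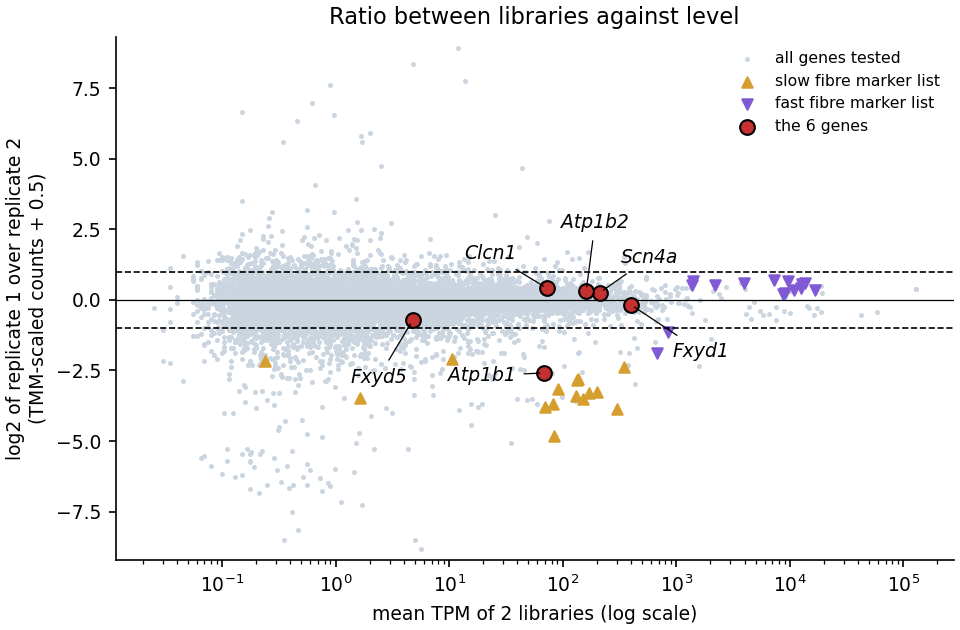
Log2 ratio of replicate 1 over replicate 2 (TMM-scaled counts + 0.5) against mean TPM of 2 libraries (log axis) for all genes compared (grey), the 6 genes (red), slow fibre markers (upward triangles) and fast fibre markers (downward triangles); dashed lines mark 2-fold. Atp1b1 lies at -2.59, among the slow fibre markers, and the other 5 genes lie between -0.73 and 0.41.

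Scn4a, the sodium channel, had 226.6 TPM from 27563 counts in replicate 1 and 198.9 TPM from 26093 counts in replicate 2. The libraries were close, with replicate 1 1.20-fold higher (log2 ratio 0.26, interval 0.24 to 0.29). Scn4a (ENSMUSG00000001027.7, chr11:106318592-106353288, minus strand) carried 99.8% of the summed TPM of 9 sodium channel alpha subunit genes in replicate 1 and 99.7% in replicate 2. Scn10a, a sensory neuron channel, was listed at 0 in both libraries. The auxiliary beta subunits, which modify gating and surface delivery, included Scn4b at 94.99 and 107.95 TPM in replicates 1 and 2, which differed by less than 1.5-fold between the libraries. Of the 8 sodium channel subunit genes compared none passed 2-fold in either direction (median log2 ratio 0.02). Of all genes compared, 2.25% were at least 2-fold higher in replicate 1 and 5.21% in replicate 2.

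The Scn4a level depended on a short second transcript. Scn4a-201 (6598 bases, 24 exons) is the only one of its 2 transcripts with a coding sequence, and it drew 96.2% and 96.0% of the gene's counts in replicates 1 and 2. It made up 57.0% and 56.0% of the gene's TPM, 129.18 TPM in replicate 1 and 111.48 TPM in replicate 2. The rest of the TPM came from Scn4a-202, a non-coding transcript of 443 bases that shares 0 bases with the exons of Scn4a-201. Its exons lie upstream of exon 1 of Scn4a-201 (chr11:106349117-106349389), at chr11:106353183-106353288 and chr11:106349455-106349791. Its 1058 and 1040 counts in replicates 1 and 2, divided by a short length, became 97.42 and 87.43 TPM. In the second deposited quantification, made directly from the reads, Scn4a-202 held 61.2% and 61.4% of the TPM in replicates 1 and 2, again from few counts (3.13% and 3.17%).

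Clcn1, the chloride channel, had 81.88 TPM from 8566 counts in replicate 1 and 64.42 TPM from 7329 counts in replicate 2. Replicate 1 was 1.33-fold higher (log2 ratio 0.41, interval 0.36 to 0.45), under 2-fold. Clcn1 (ENSMUSG00000029862.15, chr6:42286685-42315756, plus strand) made up 68.6% of the summed TPM of 9 ClC genes in replicate 1 and 62.2% in replicate 2. The next were the endosomal exchangers Clcn3, at 16.62 and 14.82 TPM in replicates 1 and 2, and Clcn4, at 13.78 and 14.15 TPM. The lysosomal exchanger Clcn7 had 4.62 and 6.76 TPM and its partner subunit Ostm1 had 7.94 and 7.71 TPM, while Clcn6, another endosomal exchanger, had 1.74 and 2.08 TPM. None of the 8 genes of the ClC list that were compared passed 2-fold (median log2 ratio 0.05), beside 2.25% and 5.21% of all genes higher in replicates 1 and 2. Scn4a over Clcn1 was 2.77 in TPM in replicate 1 and 3.09 in replicate 2, and between the coding transcripts Scn4a-201 and Clcn1-201 it was 2.86 and 3.23.

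A large share of Clcn1 was assigned to transcripts without a coding sequence. Clcn1-201, with 23 exons, held 55.1% of the gene's TPM in replicate 1 and 53.6% in replicate 2, and Clcn1-202, a processed transcript without a coding sequence, held 37.8% and 38.9%. Unlike in Scn4a the 2 transcripts have like lengths, 3545 and 3504 bases, and Clcn1-202 drew 38.8% and 40.2% of the counts in replicates 1 and 2. It lacks the exon 21 shown in the junctions above and begins in the middle of the gene. Its last exon starts where that of Clcn1-201 starts but runs to 1950 bases, against 850 bases, so 1100 of its bases lie outside the exons of Clcn1-201. The second quantification gave Clcn1-201 49.5% and 49.3% of the TPM in replicates 1 and 2. The end of the gene overlaps 445 bases of Fam131b on the other strand, which had 14 and 13 counts in replicates 1 and 2.

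Atp1b1, the beta1 subunit, had 18.72 TPM from 1336 counts in replicate 1 and 117.91 TPM from 9123 counts in replicate 2. It was 6.01-fold higher in replicate 2 (interval 5.68 to 6.37, log2 ratio -2.59), far outside counting error, and 0.862% of all genes compared had a lower ratio. Atp1b1 (ENSMUSG00000026576.12, chr1:164437109-164458355, minus strand) was the only one of the 6 past 2-fold. The 15 slow fibre markers moved the same way, with a median log2 ratio of -3.31, and their part in the Atp1b1 difference was not tested. The most abundant of them were Mybpc1, a slow myosin-binding protein, at 107.18 TPM in replicate 1 and 580.75 TPM in replicate 2, and Myl2, the slow regulatory light chain, at 40.02 and 564.01 TPM. In bulk tissue, fewer fibres of a type and less RNA per fibre cannot be told apart. Schwann cell markers also lay lower in replicate 1, 11 of 11, with 4 past 2-fold and a summed level of 31.4 TPM against 46.9 TPM in replicate 2. Smooth muscle and pericyte markers did likewise, 10 of 10, with 2 past 2-fold. Of all genes compared, 50.8% had a log2 ratio under 0 and 5.21% were at least 2-fold higher in replicate 2. The part of either marker list in the Atp1b1 difference was not tested. Nme7, which overlaps 617 bases of Atp1b1 on the other strand, had 32 counts in each library.

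Atp1b2, the beta2 subunit, had 176.07 TPM from 15121 counts in replicate 1 and 146.23 TPM from 13780 counts in replicate 2. It was 1.25-fold higher in replicate 1 (log2 ratio 0.32, interval 0.28 to 0.35), so the beta subunits differed in opposite directions between the libraries. Atp1b2 (ENSMUSG00000041329.13, chr11:69599736-69605942, minus strand) made up 84.8% of the beta subunit TPM in replicate 1 and 52.3% in replicate 2, and Atp1b1 9.01% and 42.1%. In TPM, Atp1b2 exceeded Atp1b1 by 9.41-fold in replicate 1 and by 1.24-fold in replicate 2, and in the second quantification by 9.65-fold and 1.15-fold. Atp1b2 was thus the higher of the pair in both libraries, by very different margins. Atp1b3, the widespread beta3 form, had 12.5 and 13.8 TPM in replicates 1 and 2, and Atp1b4 had 0.39 and 1.83 TPM.

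**Figure D3:**
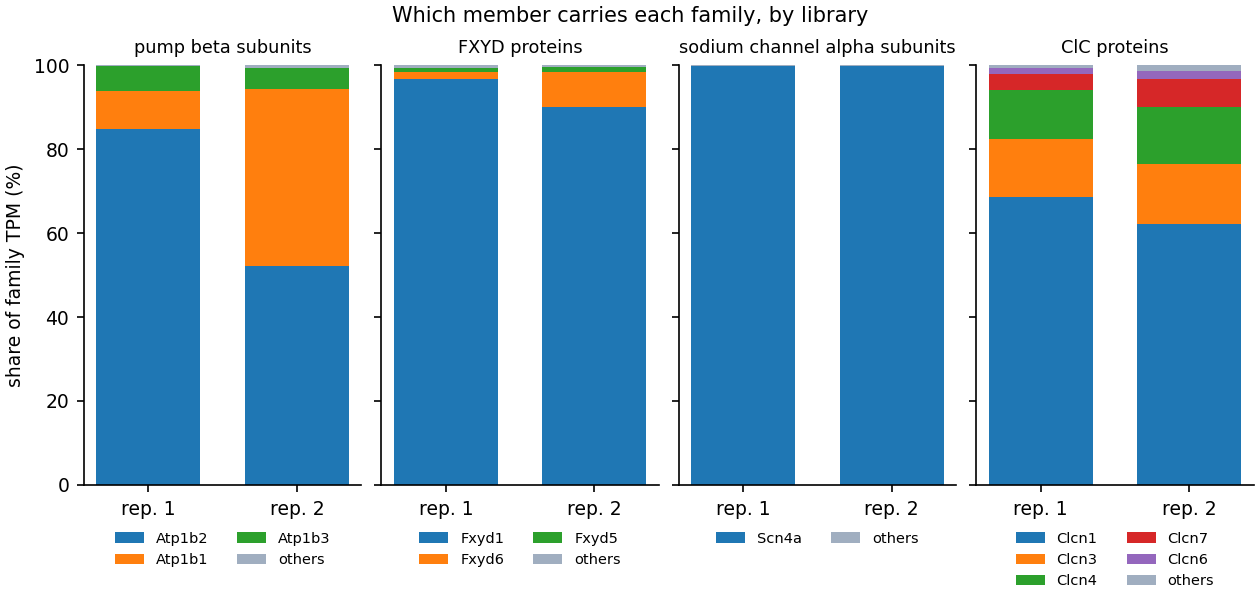
Share of summed TPM (percent) carried by each member of 4 gene families, with replicate 1 left and replicate 2 right in each panel; members under 1% in both libraries are pooled as others. The Atp1b1 share is 9.01% in replicate 1 and 42.1% in replicate 2, while Scn4a carries 99.7% or more of its family in both.

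Both beta subunit genes were led by 1 transcript. Atp1b1-201 held 88.7% of the gene's TPM in replicate 1 and 87.5% in replicate 2, and Atp1b2-201 held 90.1% and 90.0%. The second quantification gave lower shares, 66.1% and 61.3% for Atp1b1-201 and 59.3% and 65.1% for Atp1b2-201 in replicates 1 and 2. There Atp1b1-203, a 628-base transcript with an incomplete coding sequence, took 32.7% and 36.7%, from 5.91% and 6.97% of the counts. Atp1b2-201 over Atp1b1-201 was 9.55 in replicate 1 and 1.28 in replicate 2, close to the ratio of the whole genes.

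Fxyd1, phospholemman, had 372.82 TPM from 4060 counts in replicate 1 and 426.5 TPM from 5189 counts in replicate 2. The libraries were close, with replicate 2 1.13-fold higher (log2 ratio -0.17, interval -0.23 to -0.11). Fxyd1 (ENSMUSG00000036570.14, chr7:31051678-31057199, minus strand) held 96.8% of the TPM of the 7 FXYD genes in replicate 1 and 90.0% in replicate 2. The highest level of the 6 genes thus rested on fewer counts than Scn4a, Clcn1 or Atp1b2 had, because its transcripts are short. FXYD over beta subunit TPM was 1.85 in replicate 1 and 1.69 in replicate 2. That ratio counts all transcripts, among them the non-coding Fxyd1-213 at 123.63 and 122.55 TPM in replicates 1 and 2. The second quantification put Fxyd1-213 at 0 in both libraries.

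Fxyd5, dysadherin, had 3.88 TPM from 68 counts in replicate 1 and 5.66 TPM from 128 counts in replicate 2. It was 1.65-fold higher in replicate 2, with a wide interval of 1.23 to 2.26 that reaches past 2-fold (log2 ratio -0.73, interval -1.18 to -0.29). Fxyd5 (ENSMUSG00000009687.14, chr7:31032722-31042481, minus strand) lies close to Fxyd1 on the same strand with Fxyd7 between them. Despite that closeness Fxyd1 exceeded Fxyd5 by 96.1-fold in TPM in replicate 1 and by 75.4-fold in replicate 2. Fxyd7 had 0.11 and 0.49 TPM in replicates 1 and 2. Several marker lists of other cells also had a median log2 ratio under 0: -0.83 for 11 Schwann cell, -0.54 for 10 smooth muscle and pericyte, -0.30 for 11 endothelial and -0.23 for 10 macrophage and leukocyte markers, while 10 fibroblast markers had -0.02. The macrophage and leukocyte markers, of which 7 lay under 0, 3 above it and none past 2-fold, summed to 46.6 TPM in replicate 1 and 53.1 TPM in replicate 2. Of all genes compared, 50.8% lay under 0, and 2.25% and 5.21% were at least 2-fold higher in replicates 1 and 2. The part of these cells in the Fxyd5 level was not tested.

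The transcripts of Fxyd1 and Fxyd5 were assigned differently by the 2 quantifications. Of the 17 Fxyd1 transcripts 10 carry the same 276-base coding sequence, so they encode 1 protein and differ in their untranslated ends. Together they held 65.3% of the TPM in replicate 1 and 69.0% in replicate 2 in the first quantification, and 98.4% and 97.6% in the second. The difference lay mainly in Fxyd1-213, a retained-intron transcript of 255 bases, which held 33.2% and 28.7% in replicates 1 and 2 in the first and 0 in the second. Within the group that encodes 1 protein, the second quantification gave Fxyd1-217 1426 counts in replicate 1 and about 0 in replicate 2, and Fxyd1-201 0 in replicate 1 and 1609 in replicate 2. Fxyd1-201 and Fxyd1-217 share 448 bases, with 172 bases of Fxyd1-201 and 146 bases of Fxyd1-217 outside the other, and the level of either alone is uncertain. Of the 14 Fxyd5 transcripts 5 carry the same 534-base coding sequence, with 26.03% and 54.1% of the TPM in replicates 1 and 2 in the first quantification, and 71.6% and 89.6% in the second. With 68 and 128 counts for the gene, no single Fxyd5 transcript led in both libraries of the first quantification.

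**Figure D4:**
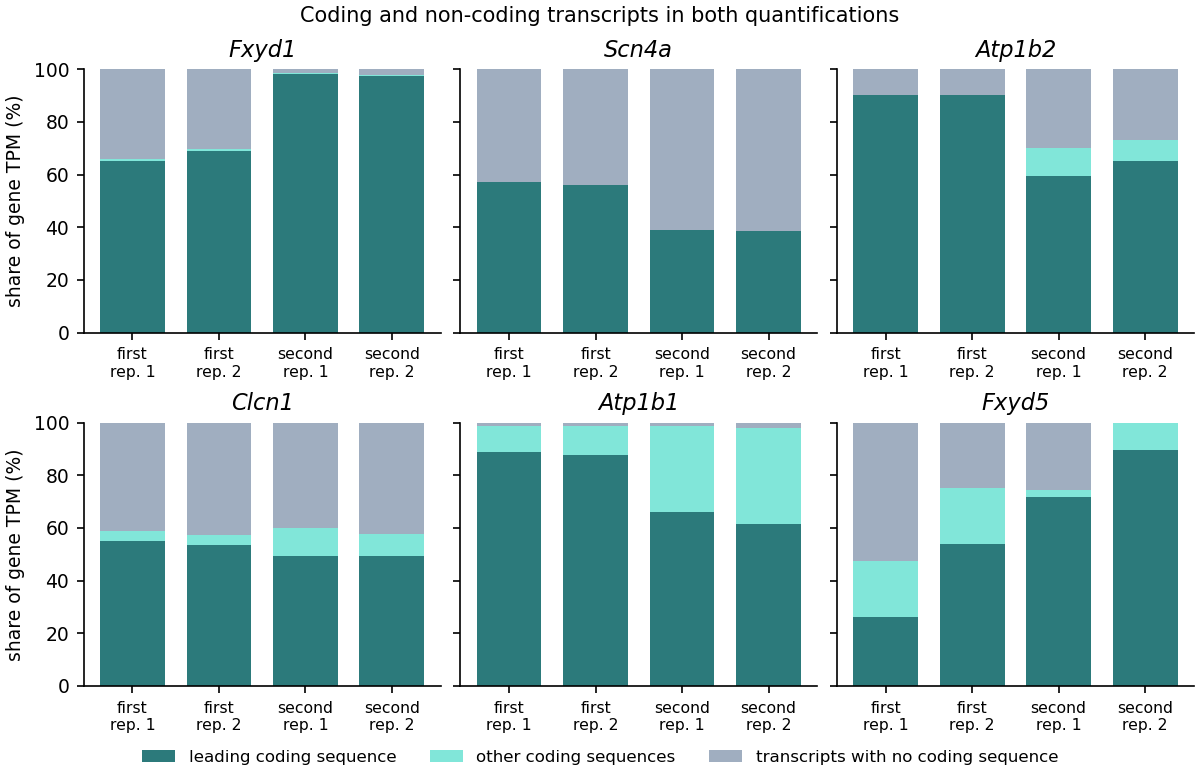
Share of gene TPM (percent) of the leading coding sequence, of other coding sequences (those marked for nonsense-mediated decay included) and of transcripts without one, for the first quantification (left pair of bars) and the second (right pair) in each library. The coding share of Scn4a is 57.0% and 56.0% in replicates 1 and 2 in the first quantification and 38.8% and 38.6% in the second, while that of Fxyd1 is higher in the second.

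Counting protein-coding transcripts alone changed the order of the genes. Fxyd1 then had 245.05 and 297.39 TPM in replicates 1 and 2, Atp1b2 158.67 and 131.67 TPM, and Scn4a 129.18 and 111.48 TPM, so Atp1b2 stood above Scn4a with ranges that did not overlap. Atp1b1 had 18.51 and 116.35 TPM, Clcn1 45.14 and 34.55 TPM and Fxyd5 1.84 and 4.24 TPM. The range of Clcn1 again lay inside that of Atp1b1. At gene level, after rescaling over nuclear protein-coding genes, log2 of the first over the second quantification ran from -0.26 (Scn4a) to 0.44 (Fxyd5) in replicate 1 and from -0.25 (Atp1b1) to 0.28 (Fxyd5) in replicate 2. All 12 values lay inside the middle 95% of the 11247 genes compared in each library, -0.65 to 0.73 in replicate 1 and -0.63 to 0.73 in replicate 2. Fxyd1 had 1.18 and 1.23 times as many counts in the first as in the second quantification in replicates 1 and 2, while the other 5 genes had 0.89 to 0.97 times as many.

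Of the 15 genes listed by gene name as pump subunits and FXYD regulators, 11 were abundant enough to compare. None was at least 2-fold higher in replicate 1 and 3 were in replicate 2, Atp1b1, Fxyd6 and Atp1b4, beside 2.25% and 5.21% of all genes compared. The median log2 ratio was -0.56 over the list and -0.0054 over all genes. Fxyd6, a pump regulator known from brain and inner ear, had 5.97 TPM in replicate 1 and 39.4 TPM in replicate 2 and was 6.33-fold higher in replicate 2. Its share of FXYD TPM was 1.55% in replicate 1 and 8.30% in replicate 2, the counterpart of the lower Fxyd1 share there. Fxyd2, the kidney gamma subunit, had 1.80 and 1.59 TPM in replicates 1 and 2, and Fxyd4 was listed at 0. The 12 other sarcolemmal sodium and chloride transporters held 2 past 2-fold, both higher in replicate 2 (median log2 ratio -0.22): the anion exchanger Slc4a3, at 1.37 and 3.89 TPM in replicates 1 and 2, and the sodium leak channel Nalcn, at 0.07 and 0.23 TPM. The counting intervals of both reached across the 2-fold line, -1.31 to -0.71 for Slc4a3 and -2.16 to -0.30 for Nalcn on the log2 scale. The others at 1 TPM or more included the sodium-calcium exchangers Slc8a1, at 10.38 and 15.16 TPM in replicates 1 and 2, and Slc8a3, at 17.3 and 17.4 TPM. The sodium-potassium-chloride cotransporter Slc12a2 had 17.57 and 16.55 TPM, and the potassium-chloride cotransporters Slc12a4 and Slc12a7 had 4.64 and 6.77, and 2.83 and 2.15 TPM in replicates 1 and 2. By scaled counts Slc12a7 was 1.29-fold higher in replicate 2 (log2 ratio -0.37), against the direction of its TPM. The bicarbonate cotransporters Slc4a4 and Slc4a7 had 8.35 and 8.99, and 2.42 and 4.03 TPM in replicates 1 and 2.

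Of 9 genes listed as sarcolemmal anchors of channels and pump, none passed 2-fold in either direction (median log2 ratio 0.01). Over all genes compared, 2.25% were at least 2-fold higher in replicate 1 and 5.21% in replicate 2. Ank1, an ankyrin with short muscle forms, was the highest at 365.13 TPM in replicate 1 and 254.54 TPM in replicate 2. Which of the Ank1 forms made up this level was not examined. Ank3, the ankyrin that binds voltage-gated sodium channels, had 30.3 and 32.9 TPM in replicates 1 and 2, and Ank2 had 35.3 and 50.3 TPM. The spectrins Sptb and Sptbn1 had 64.6 and 66.8, and 35.3 and 49.7 TPM. The syntrophins Sntb1 and Sntb2 had under 2 TPM in both libraries, and dystrophin, Dmd, had 34.7 and 33.3 TPM in replicates 1 and 2.

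For each of the 6 genes, the most alike of 12943 protein-coding genes were taken as those nearest in log2(TPM + 1) over the 2 libraries, a likeness that rests on 2 points only. Next to Atp1b1 came Rcan1, a calcineurin regulator, at 22.03 TPM in replicate 1 and 138.8 TPM in replicate 2 (distance 0.32), and Myoz2, a calsarcin of slow fibres and a member of the slow marker list, at 18.0 and 165.3 TPM (distance 0.49). The other 5 genes had closer neighbours, at distances of 0.0081 to 0.11. These were Ndufa3 and Uqcr10 for Fxyd1, both subunits of the respiratory chain, and Cd164 and Ube2r2 for Clcn1. They were Rps20 and Pdlim7 for Scn4a, Smtnl2 and the ubiquitin ligase Trim63 for Atp1b2, and Ndufa4l2 and Pgpep1 for Fxyd5.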

How the data were processed

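Total RNA of 2 gastrocnemius libraries was analysed as deposited. Neither aligner nor quantifier is given in the sources used here. The assembly is mm10 per the labels, with GENCODE M21 annotation. The deposited gene table and first transcript table give expected counts and TPM per the file headers, which the authors took from reads aligned to the transcriptome. The second transcript table gives estimated counts and TPM, which the authors made from the reads without that alignment. The deposited percent of isoform use, the posterior SD (a score of how reads were shared) and the effective lengths and interval bounds (signal) were read per the file headers. Expected counts were rounded to whole numbers before scaling. Libraries were scaled with TMM factors (edgeR 4.0.16, R 4.3.3) over the 14958 genes whose mean count reached 10, and 0.5 was added before taking log2. Intervals are exact Clopper-Pearson 95% intervals (scipy 1.17.1). Reads without molecular identifiers are not independent molecules, so intervals cover counting error only. No p-values were computed, since both libraries belong to 1 group. The ratio script was tested on simulated counts that held counting error only, so that test does not cover the further spread between these libraries. Alternatives were DESeq2 1.42.0 size factors, total counts, spike-in counts, other filters, offsets and folds, and the second quantification. The genes and lists were chosen with earlier results of these data known. The genes named are the 6, every related gene at 1 TPM or more in both libraries (some genes are not reported here), the 2 nearest neighbours of each and the 2 most abundant genes per marker list, printed for the fibre lists. Others (Fxyd4, Fxyd7, Atp1b4, Nalcn, Scn10a, Myh1, Myh2, Cldn4, Cldn7, Krt18, Cdh1, Des) were named after their values were seen. The other marker lists were, in replicates 1 and 2, endothelial (140.6 and 183.4 TPM summed, 2 of 11 past 2-fold, both higher in replicate 2), smooth muscle and pericyte (1125 and 1274 TPM, 2 of 10, likewise) and fibroblast (570.8 and 547.9 TPM, 0 of 10). Most of the smooth muscle and pericyte sum was Des alone, at 996.07 and 1096.03 TPM in replicates 1 and 2. That sum therefore says little about the other genes of the list. Of all genes compared, 2.25% were at least 2-fold higher in replicate 1 and 5.21% in replicate 2.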

Additional observations from a re-analysis of the deposited data

How the results depend on the processing

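Scaling by spike-in counts moved the median log2 ratio of all genes to -0.23, and with it Atp1b1 to -2.81 and the median of the 6 genes to -0.18. In that scaling Scn4a lay at 0.04, Atp1b2 at 0.09 and Clcn1 at 0.18, so none of the 6 changed sign. The Atp1b1 ratio lay between -2.63 and -2.58 under DESeq2 size factors, total counts, an offset of 5 and the second quantification. Counting at 1.5-fold put 2 genes higher in replicate 2, Atp1b1 and Fxyd5, beside 11.0% of all genes. At 2-fold the counts were 0 and 1 under every other setting run, while the share of all genes at least 2-fold higher in replicate 2 ran from 2.65% with a minimum mean count of 100, through 7.77% with spike-in scaling, to 16.6% with no filter. The median of the 6 genes was 0.26 with a minimum mean count of 100, which drops Fxyd5, and the mean was -0.42. With 1 library left out, the Atp1b1 share of beta subunit TPM was 42.1% without replicate 1 and 9.01% without replicate 2, against a mean of 25.6%. Levels rescaled over nuclear protein-coding genes moved by more than the SD of the 2 libraries for all 6 genes, in both quantifications. Scn4a moved to 474.2 and Fxyd1 to 893.5 TPM in the first, and to 564.9 and 940.8 TPM in the second. Rescaling divides every gene of a library by 1 common total, 458417 TPM in replicate 1 and 437996 TPM in replicate 2 of the first quantification. It therefore raises all levels alike and is not particular to the 6 genes. Levels counted over protein-coding transcripts, an alternative chosen after seeing the data, moved by more than the SD of the 2 libraries for 4 of the 6 genes. The share of the leading transcript moved for all 6 in the second quantification. No paired analysis was possible because there is only 1 group. The 2 libraries limit every spread to 1 difference, and the 68 and 128 counts of Fxyd5 in replicates 1 and 2 limit its ratio and transcripts most.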
